A study of Mus musculus with 2 samples.

Results

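The genes described here encode the metalloproteinases and metalloproteinase inhibitors of 4 families, the matrix metalloproteinases (Mmp), the transmembrane ADAM proteins (a disintegrin and metalloproteinase), the secreted ADAMTS proteins (ADAM with thrombospondin motifs) and the tissue inhibitors of metalloproteinases (Timp). The families were chosen with earlier results of these data known. Within them, rows were taken by symbol alone, as every row whose symbol begins with Mmp, Adam, Adamts or Timp followed by a digit. This gave 79 of the 24319 rows, made up of 23 MMP, 33 ADAM, 19 ADAMTS and 4 TIMP genes. Expression was measured by RNA sequencing of skin lymphatic endothelial cells (LECs) of C57BL/6 mouse embryos at E15.5 (embryonic day), with 1 library labelled wild type and 1 labelled Dot1l knockout. Dot1l encodes the histone H3 lysine 79 methyltransferase, and the labels describe its deletion as endothelial, without naming the Cre line. Each library was made from RNA pooled from 2 to 3 biological replicates, so no difference has a replicate check and no test, error or p-value is given.

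MMPs cleave collagens, gelatin, proteoglycans and other matrix proteins, and most are secreted or displayed as inactive precursors that another protease must activate. ADAM proteins with a working zinc site release the outer parts of membrane proteins, among them Notch receptors, growth factor precursors and tumour necrosis factor, whereas other ADAM proteins lack protease activity and act in adhesion. ADAMTS proteins are secreted and trim proteoglycans, procollagens and microfibril proteins, and one of them, ADAMTS3, processes the lymphatic growth factor VEGF-C. TIMPs bind the active site of MMPs and, in part, of ADAM and ADAMTS proteins.

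Values are the deposited FPKM, that is fragments counted per 1000000 mapped and per kilobase of the transcript, a scale on which genes of different length can be compared. The depth was not stated, and low values imply about 10200000 fragments in the wild-type library and 9080000 in the other. The sources used here do not say whether the libraries were rescaled against each other. If they were, these are scaled sizes rather than counted fragments. For a 2 kb transcript, 1 FPKM then corresponds to about 18.4 and 16.3 fragments. Dot1l itself was 5.86 FPKM in the wild-type library and 10.4 FPKM in the other. That value covers the whole gene and does not check the label, so that library is named by its label, the library labelled knockout. The LEC markers Prox1 (59.3 FPKM) and Flt4 (71.9 FPKM) were present in the wild-type library and lower in the other (13.1 and 14.1 FPKM), whereas Lyve1, which some macrophages also express, was 526 and 552 FPKM. Of 6 lymphatic endothelial markers kept, 5 were at least 2-fold lower and Lyve1 was within 2-fold. Levels of cell type markers differed between the libraries. The summed FPKM of 9 pan-endothelial markers was 1242 in the wild-type library and 223 in the library labelled knockout, and that of 7 fibroblast markers was 3972 and 939. For 9 macrophage markers the sums were 41.0 and 2782, and for 7 mast cell markers 96.6 and 12794. In bulk RNA, fewer cells of a type and less RNA per cell cannot be told apart, and the part of these shifts in any difference below was not tested.

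Differences are given as log2(FPKM + 1) in the library labelled knockout minus that in wild type, a scale on which changes of low genes come out too small. A gene was kept when it reached 1 FPKM in at least 1 library and was called higher or lower when this difference reached 2-fold. Of the 79 members, 47 were kept, and 19 were listed at 0 in both libraries. Among the 47, 9 were higher, 19 lower and 19 within 2-fold. Over all 13296 genes kept, 16.8% were called higher and 15.5% lower, against 19.1% and 40.4% of the members. The median difference was -0.52 for the members and 0.00 for all genes kept. The families did not share a direction. The MMP genes divided and the ADAM genes had a median of 0.62. Of the others, 9 of 16 ADAMTS (median -1.15) and 2 of 4 TIMP genes (median -1.23) were lower with none called higher. Members under 1 FPKM in 1 library were kept only through the other, which sets part of these counts and medians.

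**Figure D1:**
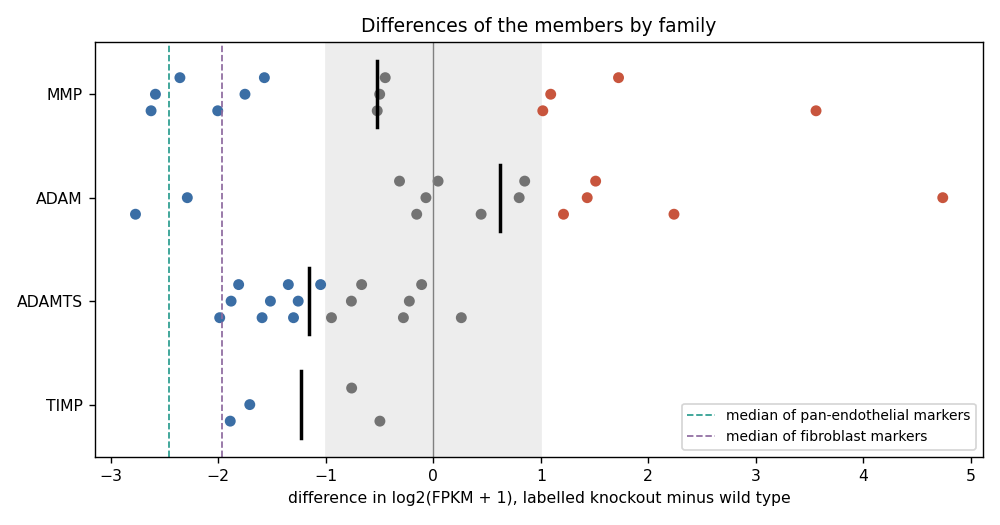
Each point is 1 of the 47 members kept, placed by its difference in log2(FPKM + 1), library labelled knockout minus wild type, with red points at least 2-fold higher, blue points at least 2-fold lower and grey points within 2-fold (shaded). Black bars mark the family medians (MMP -0.52, ADAM 0.62, ADAMTS -1.15, TIMP -1.23) and dashed lines the medians of pan-endothelial (-2.46) and fibroblast (-1.96) markers. The ADAMTS and TIMP rows hold no red point. Adding 1 to FPKM shrinks the differences of low members more than those of these markers.

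MMP genes were called in both directions. All 6 MMP genes called lower were at 4.5 FPKM or more in the wild-type library, and 3 of the 4 called higher were under 1 FPKM there. The rule sets this in part. A lower call needs at least 1 FPKM in wild type, and those 3 were kept only through the library labelled knockout. Of 13 MMP genes kept, 4 were higher, 6 lower and 3 within 2-fold, beside 16.8% and 15.5% of all genes. The median of -0.52 therefore falls between the members called lower and those called higher.

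The membrane-type MMPs, which are anchored at the cell surface and activate other MMPs there, had the lowest differences of the family. Mmp14, which encodes MT1-MMP, the activator of proMMP2 and a pericellular collagenase, was 121 FPKM in wild type and 19.4 FPKM in the library labelled knockout, 6.26-fold lower. Mmp15, encoding MT2-MMP, was 18.4 and 2.79 FPKM, and Mmp16, encoding MT3-MMP, was 14.8 and 1.56 FPKM. These 3 were 6.26-fold to 9.49-fold lower, with log2 differences from -2.63 to -2.36. Pericyte and smooth muscle markers, with a median difference of -2.53, pan-endothelial markers, at -2.46, and fibroblast markers, at -1.96, were also lower. The other 3 membrane-type genes, Mmp17, Mmp24 and Mmp25, were under 1 FPKM in both libraries.

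The gelatinases, which digest denatured collagen and type IV collagen of basement membranes, went in opposite directions. Mmp2 was 45.4 FPKM in wild type and 10.6 FPKM in the library labelled knockout, 4.30-fold lower. Mmp9, which is prominent in myeloid cells and osteoclasts, was 0.259 and 3.16 FPKM, 12.2-fold higher, on about 7.9 and 85.3 fragments. Mmp2 remained the more abundant gelatinase in both libraries, but its lead shrank.

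The collagenases, which cut fibrillar collagens in their triple helix, were listed at 0 in the wild-type library without exception. In the library labelled knockout Mmp8, the collagenase stored in neutrophil granules, was 10.8 FPKM (about 218 fragments) and Mmp13, also a product of hypertrophic cartilage and osteoblasts, was 1.13 FPKM (about 25.4 fragments). A value listed at 0 can be a failed estimate, so no fold is given for either. Mmp1a and Mmp1b were listed at 0 in both libraries. Neutrophil markers were higher beside Mmp8 in part: S100a8 was 3.98 and 104 FPKM and S100a9 1.63 and 205 FPKM, while Mpo was 0.783 and 1.56, Elane was listed at 0 in both, and Camp was 0.257 FPKM and listed at 0. S100a8 and S100a9 are also made by other myeloid cells, and Ly6g was not analysed here.

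The remaining MMP genes were of low or middle level. Mmp19, a basement membrane-degrading MMP found in many tissues, was 6.38 FPKM in wild type and 14.0 FPKM in the library labelled knockout, a log2 difference of 1.02 that just passed the threshold. It was 0.90 with both libraries brought to the same upper quartile and 0.74 with each brought to a sum of 1000000, within 2-fold in both cases. Mmp23, a type II membrane MMP, was 13.8 and 3.97 FPKM, and Mmp11, the stromelysin of stromal fibroblasts that is activated by furin, was 4.55 and 0.647 FPKM. Mmp3, a stromelysin that also activates procollagenases, was 1.09 and 0.536 FPKM on about 17.9 and 7.8 fragments. Mmp27 (2.07 and 1.18 FPKM) and Mmp28, epilysin (1.85 and 0.987 FPKM), lay within 2-fold. The macrophage metalloelastase Mmp12 was listed at 0 in wild type and at 0.793 FPKM in the library labelled knockout, below the minimum, although all 9 macrophage markers were at least 2-fold higher there. Mmp7, Mmp10, Mmp20 and Mmp21 were listed at 0 in both.

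Many of the MMP genes listed at 0 were neighbours on 1 chromosome. In the RefSeq gene order for GRCm38.p6, a different build from the mm9 named in the submitters' processing notes, 10 MMP genes follow each other on chromosome 9 with no other protein-coding gene between them: Mmp13, Mmp12, Mmp1b, Mmp3, Mmp1a, Mmp10, Mmp8, Mmp27, Mmp20 and Mmp7. Of these 10, 8 were listed at 0 in the wild-type library, and 5 in both. Only Mmp3 and Mmp27 had a value in wild type, and Mmp8, Mmp13 and Mmp12 gained one in the library labelled knockout. Mmp2, Mmp9, Mmp14, Mmp15 and Mmp16 lie outside the run.

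**Figure D2:**
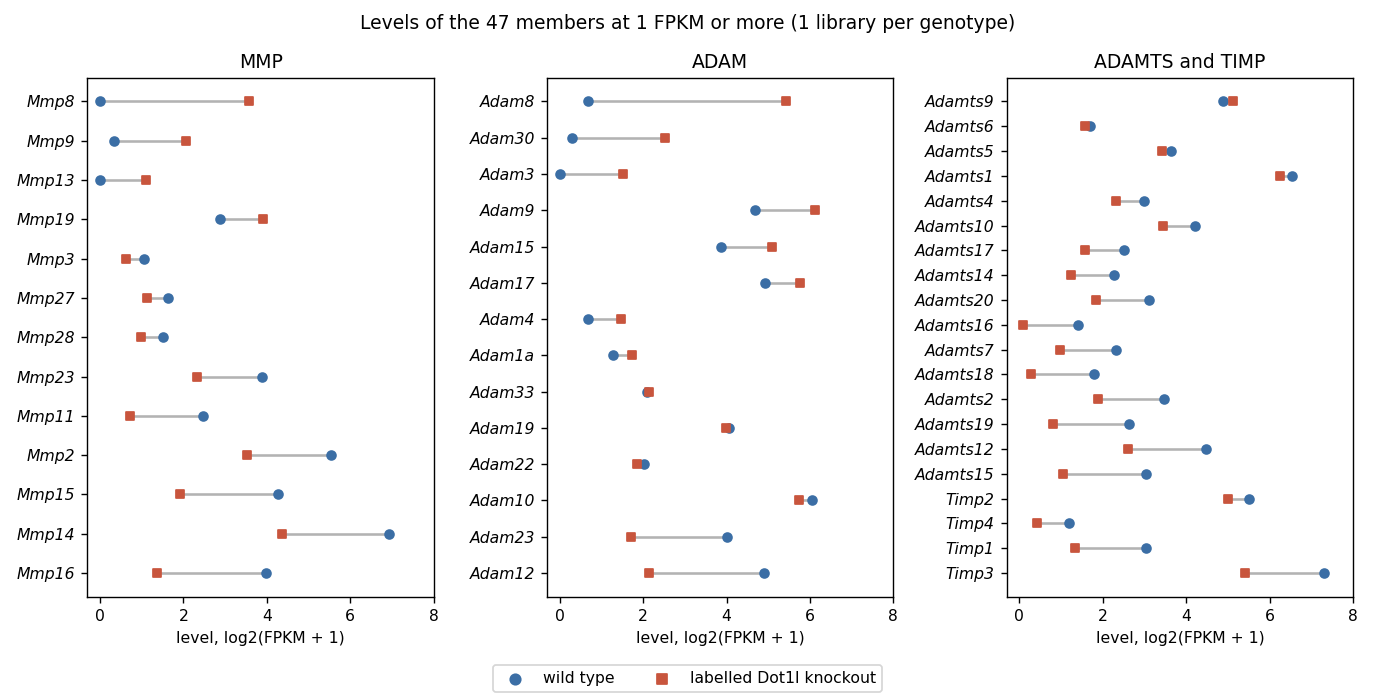
Level in log2(FPKM + 1) of each of the 47 members kept, with a circle for the wild-type library, a square for the library labelled knockout and a line joining them; genes are ordered within each family by the difference. Mmp14 (121 and 19.4 FPKM) and Timp3 (156 and 41.3 FPKM) were the highest members in wild type and were lower in the other library, while Adam8 and Mmp8 started near or at 0.

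RefSeq promoter windows (from 250 bases before to 50 after an annotated start, build GRCm38.p6) were matched by symbol for 29 of the 47 members kept, with 4 of the 9 higher, 12 of the 19 lower and 13 of the 19 within 2-fold. The stretches shown are the 120 bases before the start of 6 members that carry the contrast above, Mmp13 and Adam8 among the higher genes, Mmp14, Timp1 and Timp3 among the lower, and Mmp3, a neighbour of Mmp13 within 2-fold. Capitals mark matches, on either strand, to the AP-1 motif TGANTCA, the TATA box TATAAA and the GC box GGGCGG.
Mmp13 (chr9:7272394-7272513, plus strand): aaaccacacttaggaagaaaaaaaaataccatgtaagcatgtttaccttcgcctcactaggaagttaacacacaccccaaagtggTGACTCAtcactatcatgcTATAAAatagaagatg
Mmp3 (chr9:7445702-7445821, plus strand): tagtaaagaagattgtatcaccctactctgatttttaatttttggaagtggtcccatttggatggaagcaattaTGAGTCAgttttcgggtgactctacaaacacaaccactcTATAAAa
Adam8 (chr7:139992563-139992682, minus strand): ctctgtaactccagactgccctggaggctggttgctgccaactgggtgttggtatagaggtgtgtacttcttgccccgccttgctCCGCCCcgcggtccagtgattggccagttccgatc
Mmp14 (chr14:54431478-54431597, plus strand): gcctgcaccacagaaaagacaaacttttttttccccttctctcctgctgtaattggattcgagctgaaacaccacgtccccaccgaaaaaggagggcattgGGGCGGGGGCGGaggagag
Timp1 (chrX:20870046-20870165, plus strand): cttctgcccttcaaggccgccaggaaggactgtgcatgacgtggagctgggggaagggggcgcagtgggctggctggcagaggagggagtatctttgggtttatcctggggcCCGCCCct
Timp3 (chr10:86300292-86300411, plus strand): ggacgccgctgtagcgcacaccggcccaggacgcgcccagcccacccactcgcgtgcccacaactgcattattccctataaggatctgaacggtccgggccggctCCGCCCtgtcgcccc

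Mmp13 and Mmp3 each held an AP-1 match, beginning 35 and 46 bases before the start. A TATA box match followed, beginning 16 and 7 bases before the start. Mmp13 was listed at 0 and at 1.13 FPKM, the latter on about 25.4 fragments. Mmp3, within 2-fold, was 1.09 and 0.536 FPKM, on about 17.9 and 7.8 fragments. Over whole windows, AP-1 matches stood in 1 of 4 higher, 0 of 12 lower and 2 of 13 members within 2-fold, compared with 6.33% of the 10026 genes kept that have a window. TATA box matches stood in 2 of 4, 0 of 12 and 2 of 13, compared with 8.87%. GC box matches stood in 2 of 4, 10 of 12 and 7 of 13, compared with 68.1%. The motif GAGGAA, an ETS core, was found in 4 of the 29 members, compared with 31.1% of the genes kept. These matches are descriptions of letters in these windows, not measured binding.

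The ADAM family was the one with more members higher than lower. Of 33 listed genes, 14 were kept, 5 were higher, 2 lower and 7 within 2-fold. These are 35.7% higher and 14.3% lower, beside 16.8% and 15.5% of all genes kept, so the share lower was near that of all genes. The median difference of 0.62 compares with 0.00 for all genes kept. The rule for keeping genes sets this in part. In wild type 10 ADAM genes reached 1 FPKM, and in the library labelled knockout 14 did. Adam8, Adam30, Adam3 and Adam4 were kept only through the library labelled knockout. Of these, Adam8, Adam30 and Adam3 were called higher. Summed over the family, FPKM was 203 in wild type and 287 in the library labelled knockout, the only one of the 4 families with a higher sum there. The sum over all rows was also higher there, at 415537 and 530294 FPKM. That is 1.28-fold, beside 1.42-fold for the ADAM genes. Of the 19 genes under 1 FPKM, 12 were listed at 0 in both libraries.

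Proteases that shed membrane proteins held most of this sum. Adam8, a sheddase of leukocytes and osteoclasts, was 0.596 FPKM in wild type (about 17.7 fragments) and 41.6 FPKM in the library labelled knockout, 69.9-fold higher, with a difference of 4.74. That was the highest of any member on the log2(FPKM + 1) scale, while with a pseudocount of 0.1 Mmp8 (6.77) lay above Adam8 (5.91). Adam9, a widely expressed sheddase, was 24.6 and 68.1 FPKM, 2.77-fold higher. Adam15, which has an integrin-binding sequence in its disintegrin domain and is known from endothelium, was 13.7 and 33.0 FPKM, 2.41-fold higher, with a log2 difference of 1.21 that became 0.90 when each library was brought to a sum of 1000000. Thus Adam9 rather than Adam10 led the family in the library labelled knockout.

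The sheddases of tumour necrosis factor and of Notch differed less. Adam17, which encodes the tumour necrosis factor converting enzyme, was 29.3 and 53.6 FPKM, a log2 difference of 0.85 just outside the threshold. Adam10, the main protease for Notch receptors and several cadherins, was 65.3 and 52.3 FPKM. Adam10 was therefore 2.23 times the level of Adam17 in wild type and 0.976 times in the other library. Adam19, a sheddase of neuregulin, was 15.6 and 14.8 FPKM, and Adam33, a mesenchymal ADAM, was 3.25 and 3.39 FPKM. Adam33 changed sign, to -0.05 and -0.26, under the upper quartile and the sum rescaling. Adam28 reached no more than 0.0442 FPKM.

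Adam12 and Adam23 were the ADAM genes called lower. Adam12, a protease of embryonic mesenchyme and myoblasts, was 28.9 FPKM in wild type and 3.38 FPKM in the library labelled knockout, 8.54-fold lower, with a difference of -2.77. That was the lowest of any member on the log2(FPKM + 1) scale, while with a pseudocount of 0.1 Mmp16 (-3.17) and Adamts16 (-3.36) lay below Adam12 (-3.06). Adam23, a non-catalytic adhesion protein of the nervous system, was 15.1 and 2.30 FPKM, 6.58-fold lower. Its relative Adam22, the receptor of the LGI proteins, was 3.03 and 2.62 FPKM, and Adam11 was under 1 FPKM in both. Fibroblast markers (median -1.96) and skeletal muscle markers (median -1.14, with summed FPKM of 16.5 and 2.99) were lower in the same library, as were pan-endothelial markers (median -2.46).

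The ADAM genes best known from testis were mostly listed at 0 or under 1 FPKM, but 3 of them passed 1 FPKM in the library labelled knockout alone. Adam30 was 0.224 and 4.78 FPKM, on about 7.6 and 144 fragments, 21.3-fold higher. Adam3, which encodes a sperm protein needed to pass the oviduct, was listed at 0 and at 1.85 FPKM, and Adam4 was 0.591 and 1.77 FPKM. Adam18, which neighbours Adam3, was listed at 0 and at 0.647 FPKM, below the minimum. The run of adjacent genes Adam18, Adam3, Adam5, Adam32 and Adam9 on chromosome 8 held members of very different level, from Adam9 at 24.6 and 68.1 FPKM to Adam32 at 0.0473 and 0.105 FPKM. Adam1a was 1.43 and 2.31 FPKM. In the GENCODE M21 annotation its exons overlap those of Mapkapk5 and Gm42878 on the same strand, so its reads are not securely assigned.

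**Figure D3:**
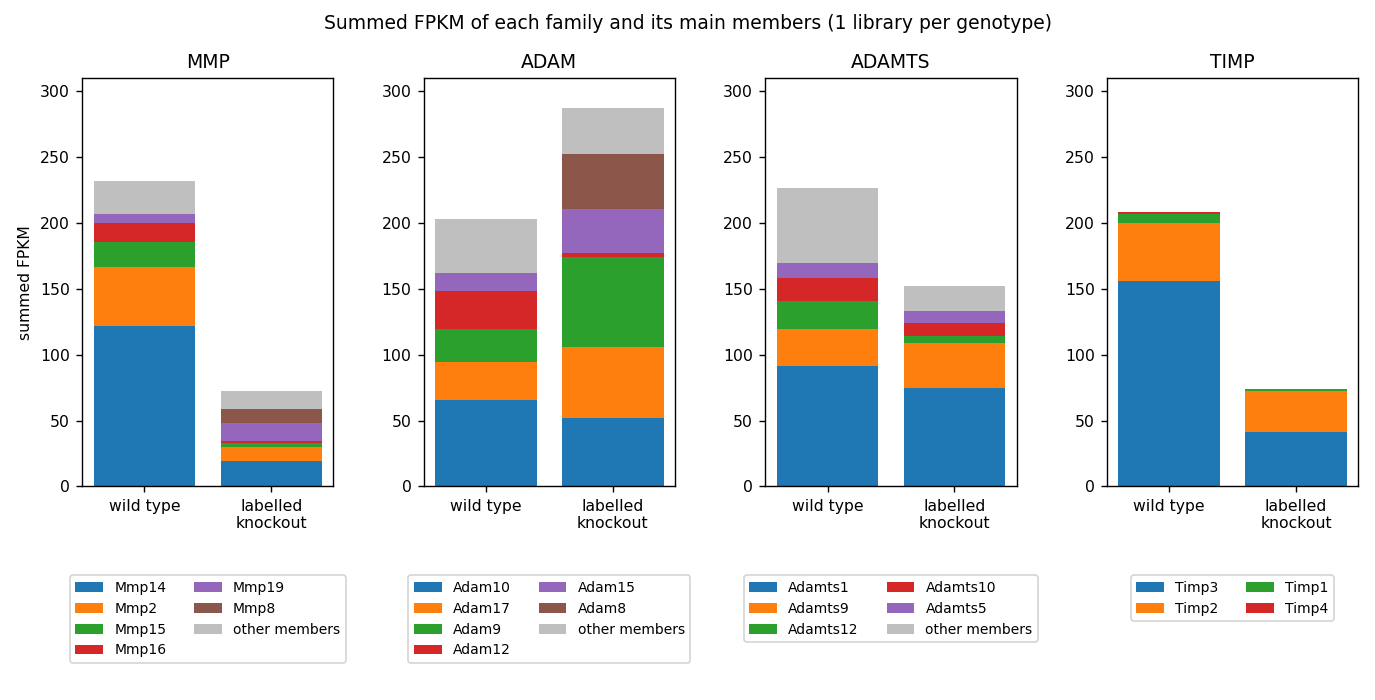
Summed FPKM of each family in both libraries, with bar segments for the main members and grey for the rest. The MMP bar goes from 232 to 72.4, the TIMP bar from 208 to 74.3 and the ADAMTS bar from 227 to 152, while the ADAM bar goes from 203 to 287 with larger segments for Adam9, Adam8 and Adam15. The bars are not scaled to the sum over all rows, which was 415537 and 530294.

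ADAMTS genes were lower or within 2-fold, and none was called higher. Of 19 listed genes 16 were kept, of which 9 were lower, 0 higher and 7 within 2-fold, and 15 of the 16 had a difference below 0. The rule for keeping genes sets this in part, as 16 reached 1 FPKM in wild type and 12 in the library labelled knockout. Adamts7, Adamts16, Adamts18 and Adamts19 were kept only through wild type, and all of these were called lower. The share called lower, 56.2%, compares with 15.5% of all genes kept, and the median of -1.15 with 0.00. When each library was brought to a sum of 1000000, which lowered the median of all genes to -0.35, 12 were lower, beside 25.2% of all genes.

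The 2 most abundant ADAMTS genes differed little. Adamts1, a protease of versican and aggrecan that is also antiangiogenic, was 91.1 FPKM in wild type and 74.9 FPKM in the library labelled knockout, and led all 4 families there. Adamts9, another versican protease, was 28.2 and 34.0 FPKM, the single difference above 0 (0.26), which became -0.08 with each library brought to a sum of 1000000. Adamts5, the main aggrecanase of mouse cartilage, was 11.4 and 9.63 FPKM, and Adamts4 was 6.96 and 4.01 FPKM. These 4 proteoglycanases lay within 2-fold beside medians of -2.46 for pan-endothelial and -1.96 for fibroblast markers. Together Adamts1 and Adamts9 went from 40.2% and 12.5% of the family's summed FPKM in wild type to 49.2% and 22.3%.

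The other proteoglycanases were lower. Adamts15 was 7.24 and 1.08 FPKM, 6.71-fold lower, and Adamts20, which acts in skin pigment cell development and palate closure, was 7.60 and 2.60 FPKM. Adamts8 was under 1 FPKM in both. The substrate versican, Vcan, was 78.0 and 16.3 FPKM, 4.79-fold lower.

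The procollagen N-proteinases remove the amino-terminal propeptide of fibrillar procollagens. Adamts2 was 10.1 FPKM in wild type and 2.69 FPKM in the library labelled knockout, 3.77-fold lower, and Adamts14 was 3.85 and 1.35 FPKM, just past the threshold with a difference of -1.05. Among their substrates Col3a1 was 1481 and 391 FPKM and Col1a2 774 and 222 FPKM, both lower, and Col1a1 was 268 and 145 FPKM, within 2-fold. Adamts3, whose product cleaves VEGF-C with the help of CCBE1, was 0.624 and 0.912 FPKM (at most about 23.9 and 30.9 fragments), under the minimum in both libraries. The substrate gene Vegfc was 7.57 and 2.61 FPKM, 2.90-fold lower. The cofactor gene Ccbe1 was 1.21 and 0.254 FPKM, 4.77-fold lower as a plain ratio. Its log2(FPKM + 1) difference of -0.82 lay within 2-fold.

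Among the other ADAMTS genes, Adamts12, which cleaves cartilage oligomeric matrix protein, was 21.3 and 5.05 FPKM, 4.21-fold lower, and its relative Adamts7 was 4.01 and 0.969 FPKM. Adamts10, linked to fibrillin microfibrils, was 17.4 and 9.82 FPKM and Adamts6, its closest relative, 2.23 and 1.99 FPKM, both within 2-fold. The substrate family was lower, with Fbn1 at 144 and 28.2 FPKM and Fbn2 at 47.0 and 13.9 FPKM. Adamts16, Adamts17, Adamts18 and Adamts19 form a group with few known substrates. Adamts19 was 5.15 and 0.752 FPKM, Adamts18 2.46 and 0.209 FPKM, Adamts16 1.63 and 0.0681 FPKM, and Adamts17 4.69 and 1.95 FPKM, the last just outside the threshold at -0.95. In the library labelled knockout the Adamts16 value rests on about 2.0 to 3.0 fragments, so its ratio is not given. Adamts13, which encodes the von Willebrand factor protease made by liver stellate cells and endothelium, was listed at 0 in both.

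All 4 TIMP genes were lower in value, and 2 passed 2-fold on the log2(FPKM + 1) scale, beside 15.5% of all genes kept. Timp3, which is bound to the matrix and also inhibits ADAM17 and several ADAMTS proteins, was 156 FPKM in wild type, the highest level of any member, and 41.3 FPKM in the library labelled knockout, 3.77-fold lower. Timp1, a soluble inhibitor induced by growth factors and cytokines, was 7.25 and 1.53 FPKM, 4.75-fold lower, on at least about 47.0 and 8.8 fragments. Timp2, which also forms the complex through which MT1-MMP activates proMMP2, was 44.3 and 31.1 FPKM. Timp4 was 1.29 and 0.351 FPKM, 3.67-fold lower as a plain ratio but within 2-fold on the log2(FPKM + 1) scale (-0.76). With a pseudocount of 0.1, 3 TIMP genes were called lower, beside 20.1% of all genes. Timp3 and Timp4 lie within introns of synapsin genes, and their exons overlap exons of Syn3 and Syn2 on the opposite strand. Other members also have exons that overlap genes on the opposite strand, among them Adamts9, Mmp19, Adam15, Adam19 and Adam17. The sources used here do not say whether counting used strand.

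The balance of proteases and inhibitors at the level of summed FPKM differed little for MMPs as a family and more for single pairs. Summed MMP FPKM divided by summed TIMP FPKM was 1.11 in wild type and 0.975 in the library labelled knockout. The ratio of Mmp2 to Timp2 was 1.02 and 0.339, and that of Mmp14 to Timp3 was 0.781 and 0.470. The ratio of Adam17 to Timp3, its inhibitor, was 0.188 and 1.30. A ratio of RNA levels in a mixture of cells says nothing of which cells hold the proteins. The make-up of the MMP sum also differed: Mmp14 held 52.5% of it in wild type and 26.8% in the library labelled knockout, while Mmp19 went from 2.76% to 19.3% and Mmp8 from 0 to 14.9%.

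The genes that activate and restrain MMPs were also divided in direction. This list and the partner lists below were chosen with earlier results of these data known, so their counts are descriptions only. Of 20 listed genes, 4 of them the TIMPs described above, 19 were kept, with 6 higher and 7 lower and a median of -0.50, beside 16.8% higher and 15.5% lower among all genes kept. Without the TIMPs there were 6 higher and 5 lower of 15, with a median of 0.40. Urokinase and its receptor were higher: Plau, the urokinase that generates plasmin, was 38.4 and 243 FPKM, and its receptor Plaur was 7.20 and 36.2 FPKM. Tissue plasminogen activator, Plat, was lower, at 19.0 and 4.12 FPKM, as was Serpine2 at 25.4 and 7.99 FPKM. Furin, the convertase that activates membrane-type MMPs, MMP11 and many ADAM proteins, was 6.26 and 81.4 FPKM, 13.0-fold higher, whereas the convertases Pcsk6 (42.7 and 11.5 FPKM) and Pcsk5 (5.87 and 1.05 FPKM) were lower. Reck, a membrane-anchored MMP inhibitor of vessels, was 11.4 and 2.33 FPKM, 4.91-fold lower. Cd44, which docks MMP9 and MT1-MMP at the cell surface, was 36.9 and 77.7 FPKM.

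The partners and shed ligands of ADAM proteins mostly lay within 2-fold. Of 20 listed genes 16 were kept, with 5 higher, 1 lower and 10 within 2-fold, and a median of 0.13. Among all genes kept 16.8% were higher and 15.5% lower. The higher genes were the ADAM17 substrates Tnf (1.74 and 71.2 FPKM), Tnfrsf1b (1.20 and 18.8 FPKM), Tnfrsf1a (10.7 and 33.7 FPKM) and Areg (listed at 0 and at 11.7 FPKM), and Tspan33 (0.216 and 3.94 FPKM), a tetraspanin that escorts ADAM10. Rhbdf1 and Rhbdf2 encode the iRhoms that carry ADAM17 to the cell surface. Rhbdf1 was 13.9 and 5.16 FPKM, the single gene of the list called lower, and Rhbdf2, the form of myeloid cells, was 1.90 and 4.42 FPKM, so the order of the 2 genes was closer to even in the library labelled knockout. Among the other tetraspanins that bind ADAM10, Tspan14 was 41.8 and 26.3 FPKM and Tspan5 was 14.0 and 9.53 FPKM. Macrophage markers had a median difference of 6.77 in the same library.

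The ADAMTS-like genes, cofactors and substrates were lower on balance. Of 22 listed genes 17 were kept, with 10 lower, 6 within 2-fold and 1 higher and a median of -1.25, beside 15.5% lower and 16.8% higher among all genes kept. Adamtsl1, which encodes a matrix protein with the ADAMTS ancillary domains but no protease, was 7.64 and 1.72 FPKM. Comp, the cartilage oligomeric matrix protein, was 6.08 and 0.580 FPKM. The glycosylating enzymes that ADAMTS proteins need for secretion lay within 2-fold, with Pofut2 at 33.5 and 21.2 FPKM and B3glct at 6.51 and 6.33 FPKM. Lrp1, the endocytic receptor that clears ADAMTS5, MMPs and TIMP3 and that macrophages and fibroblasts both express, was 9.29 and 34.4 FPKM and was the gene called higher. Fibroblast markers, which include Col1a1, Col1a2 and Col3a1 of this list, had a median of -1.96.

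**Figure D4:**
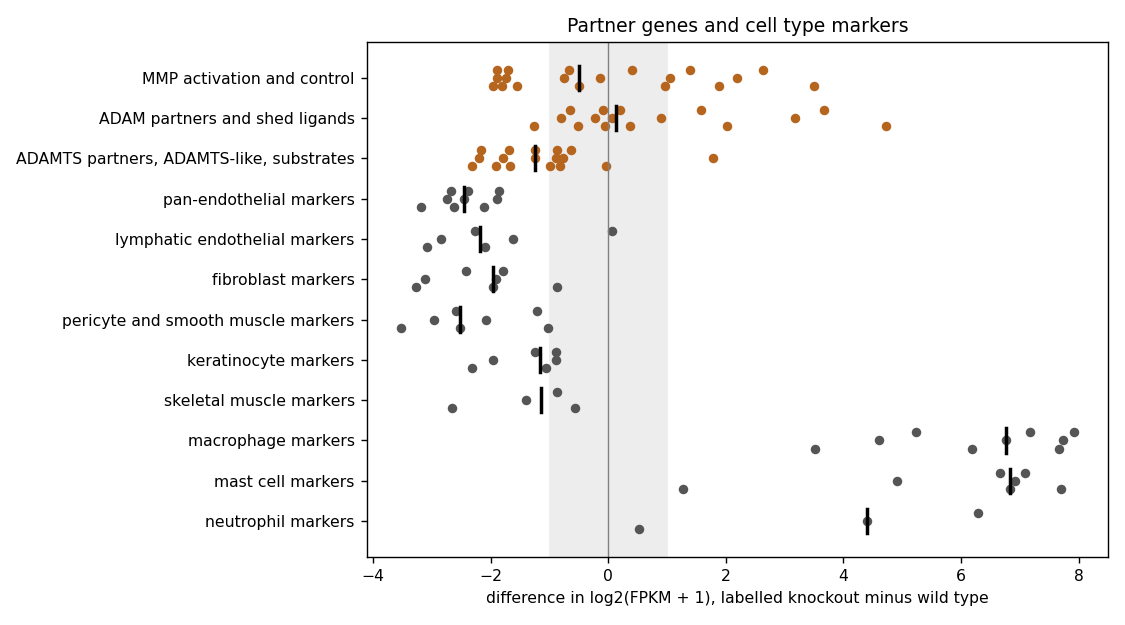
Each point is 1 gene at 1 FPKM or more in at least 1 library, placed by its difference in log2(FPKM + 1), library labelled knockout minus wild type; brown points are the partner lists, grey points the cell type markers, black bars the medians and shading the 2-fold range. The medians of the partner lists (-0.50, 0.13 and -1.25) lie between those of endothelial and fibroblast markers (-2.46 and -1.96) and those of macrophage and mast cell markers (6.77 and 6.84).

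Set against the marker lists, the members spread between them. Of the 47 members kept, 3 had a difference below the pan-endothelial median of -2.46, namely Adam12, Mmp14 and Mmp16, and 44 lay above it. Relative to the fibroblast median of -1.96, 7 lay below and 40 above. None reached the macrophage median of 6.77 or the mast cell median of 6.84, and Adam8 at 4.74 and Mmp8 at 3.56 came closest. Genes of at least 10 FPKM numbered 20 in wild type and 14 in the library labelled knockout among the members, compared with 6287 and 6582 among all rows.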

How the data were processed

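The 2 libraries were deposited by the authors as FPKM values per gene symbol. STAR 2.5.2b, Cufflinks 2.2.1, Cuffnorm, R 3.3.2 and the build mm9 are named in the submitters' processing notes, but the sources used here do not give their roles, the annotation or any scaling between libraries. Per the labels' protocols, RNA with an integrity number above 7.0 was used with the ScriptSeq v2 kit. A growth protocol for primary LECs in culture is among the labels, which do not say whether the sequenced cells were cultured. Members were found by symbol, and differences in log2(FPKM + 1) were computed with Python 3.11.15, pandas 2.3.3 and numpy 2.4.6, with a pseudocount of 1, a minimum of 1 FPKM in at least 1 library and a 2-fold threshold. The threshold calls were tested on simulated data made from rows of high level in wild type, with changes larger than the threshold. That checks the code and says nothing of low members or those near 2-fold. Depth was estimated from genes with a single GENCODE M21 transcript of at least 2500 nt and values of up to 5 fragments, assuming fragments of 200 nt. At the best of 500 steps, 83.0% of 159 wild-type values and 76.0% of 175 values of the library labelled knockout were whole fragments to within 0.1. Fragments behind a member use the lengths of its protein-coding GENCODE transcripts. Every member at 1 FPKM or more was named, and some genes of the partner lists are counted but not reported here by name. The members, the lists and the markers were chosen with earlier results of these data known. Alternatives were pseudocounts of 0.1 and 5, rescaling to a sum of 1000000 or to the same upper quartile, no minimum or 5 FPKM, and thresholds of 1.5-fold and 3-fold. Protein sequences were not used here.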

Additional observations from a re-analysis of the deposited data

How the results depend on the processing

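No paired analysis was possible because there was a single library for wild type and a single one labelled knockout, and neither could be left out. With a pseudocount of 5 the counts called higher were 1 MMP and 3 ADAM genes, in place of 4 and 5, and those called lower were 2 ADAMTS and 1 TIMP gene, in place of 9 and 2, while 9.95% of all genes were higher and 6.93% lower. With a minimum of 5 FPKM, 2 MMP and 3 ADAM genes were higher and 5 ADAMTS genes lower, with 17.5% and 15.0% of all genes. At a 3-fold threshold, 2 MMP and 2 ADAM genes were higher and 4 ADAMTS genes lower, with 9.76% and 6.81% of all genes. The count of MMP genes called lower was 5 or 6 and that of ADAMTS or TIMP genes called higher was 0 under all 8 alternatives. A change of pseudocount cannot alter a sign, and the rescalings moved the libraries against each other by less than 2-fold. No called member could therefore change sign under the 4 alternatives that alter values, so this was no check of them. Of the members within 2-fold, Adam33 and Adamts9 changed sign on rescaling. Rescaling to a sum of 1000000 lowered the median of all genes to -0.35 and to the same upper quartile to -0.12. Under the first, 14.2% of all genes were higher and 25.2% lower, in place of 16.8% and 15.5%. At the estimated depth, members near 0.1 FPKM rest on a few fragments, so their order was not detectable.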
